A study of Tupaia belangeri chinensis with 12 samples.

Results

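The 8 genes encoding transcriptional repressors of the HES, HEY and ID families, HES1, HES5, HES6, HEY1, ID1, ID2, ID3 and ID4, were followed across 4 layers of fetal cortex from Chinese tree shrews. They were taken by exact gene symbol from the deposited tables and are 8 of 81418 gene IDs. HES and HEY proteins are basic helix-loop-helix factors that are switched on by Notch signalling and repress proneural genes, which holds neural progenitors in an undifferentiated state. HES6 is the exception in its family, since in mouse it opposes HES1 and favours neuronal differentiation. ID proteins lack the basic region that contacts DNA and act by binding E proteins, the partners that proneural factors need, and their genes are classical targets of bone morphogenetic protein (BMP) signalling.

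The layers are the cortical plate (CP), which holds postmitotic neurons, and 3 germinal layers, the outer subventricular zone (OSVZ), the inner subventricular zone (ISVZ) and the ventricular zone (VZ). Each layer was cut by laser from Nissl-stained frozen sections and gave 3 libraries of poly(A)-selected RNA, 12 in all. Every library is labelled embryonic day 37 and comes from untreated tissue of Tupaia belangeri chinensis, with no genotype or sex given. The names of the deposited tables carry embryonic day 35 instead, and the age given here is that of the labels. The titles call 1 layer ISVZ where the dissection protocol names an SVZ, and they were taken to be the same layer. Whether libraries 1, 2 and 3 of a layer stem from different animals is not labelled, so the p-values speak only to the scatter among these libraries and part of it may be technical.

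Levels are FPKM, the fragments of a gene divided by the length of its transcript and by the size of the library, so levels of different members may be set side by side. Each library was further scaled by 1 factor between 0.947 and 1.06. Between 12157 and 13417 genes reached 1 FPKM in a library, and no pair of libraries held identical values. Read depth is unknown, but a relative depth read from the width of the deposited FPKM bounds ran from 0.641 in VZ 1 to 1.87 in OSVZ 3. Among layer checks, the progenitor gene PAX6 (-3.89 ± 0.22), the intermediate progenitor gene EOMES (-5.38 ± 0.23) and the division marker MKI67 (-4.30 ± 0.23) were lower in CP than in the mean of the germinal layers, and the neuronal gene TBR1 was higher (0.79 ± 0.26, log2 difference ± SE, limma adjusted p 0.0218). The TBR1 call was lost without CP 1 (adjusted p 0.0503) or CP 3 (0.132). Markers of the choroid plexus, the epithelium that floats in the ventricle, were high in VZ 1 and VZ 2: the 6 markers summed to 560 and 2691 FPKM there and to 43.9 in VZ 3. TTR made up most of these sums, with 529, 2514 and 33.8 FPKM in VZ 1, VZ 2 and VZ 3. AQP1, FOLR1, CLIC6 and KL were also higher in VZ 1 than in VZ 3, and OTX2 was lower (4.10 against 6.76).

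On the coordinates of the deposited tables, whose genome build is not given in the sources used here, HES1 (gene ID TSDBGID.4204) spans chr1:7167212-7170114 and HES6 (TSDBGID.4105) chr1:210659686-210661476. HES5 (TSDBGID.7873) spans chr13:70310050-70312550 and ID3 (TSDBGID.7982) chr13:90216352-90219660. HEY1 (TSDBGID.8213) lies at chr14:58540616-58549398, ID1 (TSDBGID.5842) at chr10:76249221-76250486, ID2 (TSDBGID.6900) at chr12:10771584-10781639 and ID4 (TSDBGID.20063) at chr31:17315645-17318111. Among the symbols, 0 are a member's name followed by li and a number, an ending read here as marking a copy. HES5, ID2 and HEY1 overlap a noncoding entry: an intergenic RNA at HES5 reached 0.219 FPKM at most, one at ID2 was listed at 0 throughout, and the antisense entry at HEY1 reached 1.05 FPKM, so the low HEY1 values are uncertain because the use of strand is not given.

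All 8 members passed the expression filter of 1 scaled FPKM in 3 libraries, and 7 of 8 differed across the 4 layers by limma's moderated F test (adjusted p from 1.47e-07 for ID4 to 0.0218 for ID2), beside 51.8% of the 14101 genes tested. ID3 did not pass (adjusted p 0.0539). In CP against the mean of the germinal layers, 7 members were lower and 0 higher, where 28.7% of all genes tested were lower and 24.0% higher. The median log2 difference was -1.41 over the 8 members and -0.05 over all genes tested. The difference of ID4 stood at percentile 0.13 of all genes tested, HES1 at 1.55, HES5 at 2.01 and HES6 at 3.52.

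Within the germinal layers the members did not move as 1 block. In OSVZ against VZ, 6 members were lower and 1, ID2, was higher, where 16.2% of all genes tested were lower and 11.7% higher, and the medians were -0.92 over the members and -0.02 over all genes tested. In ISVZ against VZ, 5 were lower and 0 higher (HES1, HES5, HEY1, ID1 and ID4), against backgrounds of 7.18% lower and 1.54% higher, with medians of -0.97 and -0.01. In OSVZ against ISVZ, 0 members passed in either direction by limma, where 0.603% of genes passed, and the members' median was -0.04; 2 of them, HES6 and ID4, had an unadjusted p under 0.05. Beside OSVZ, CP was lower for 5 members and higher for 0 (17.3% and 13.7% of genes tested). Beside ISVZ it was lower for 5 and higher for 0 (24.2% and 21.6%). Beside VZ it was lower for 7 and higher for 1, ID2 (28.7% and 23.9%). Left out singly, libraries moved the members called from 5 to 2 in ISVZ against VZ (2 without VZ 2).

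**Figure D1:**
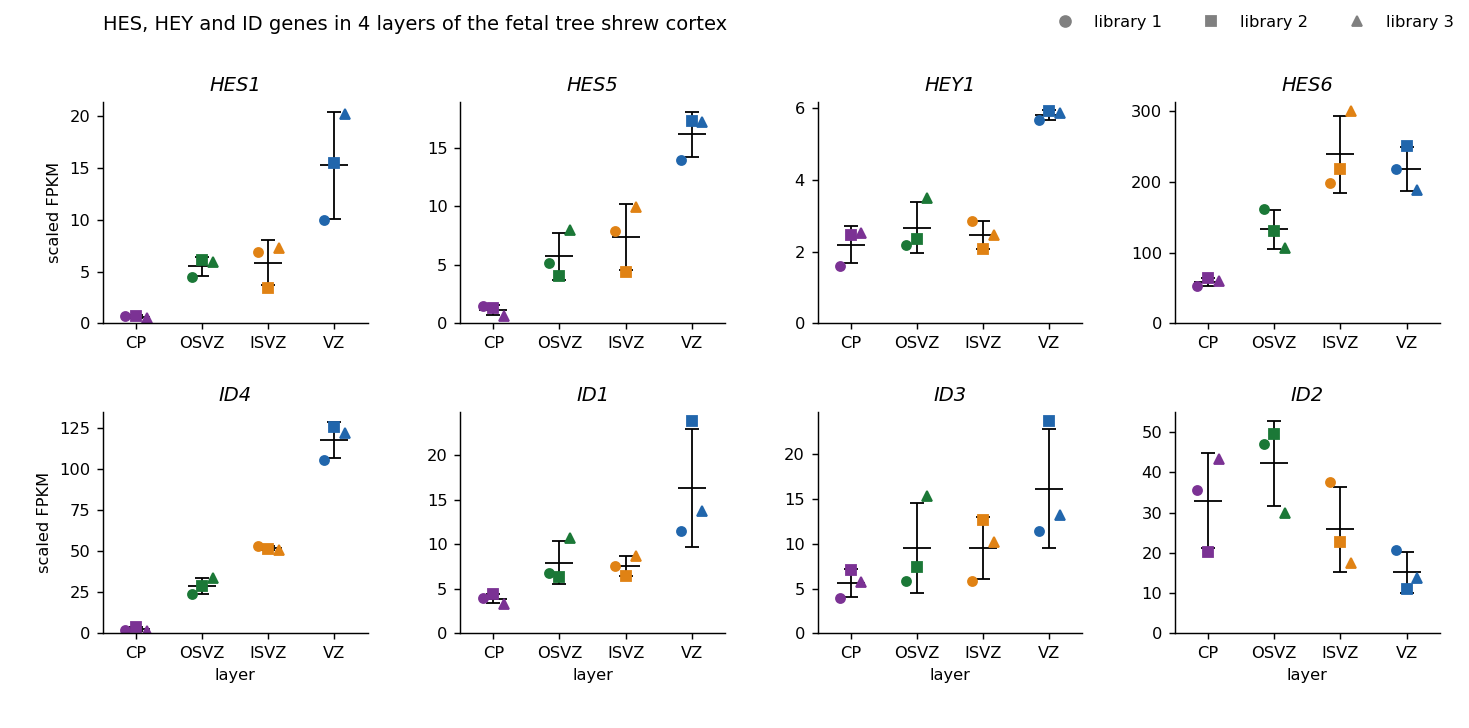
Scaled FPKM of the 8 members in each of 12 libraries on linear axes from 0, by layer from CP through OSVZ and ISVZ to VZ; points are libraries and black bars are layer means ± SD (n = 3). ID4 separates all 4 layers without overlap, HEY1 stands apart in VZ only, and ID2 is the member with its lowest mean in VZ.

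HES1 and HES5, the Notch effectors that keep radial glia cycling in mouse cortex, were nearly silent in CP and highest in VZ. HES1 had 0.742, 0.705 and 0.522 FPKM in the CP libraries, 4.47, 6.08 and 5.95 in OSVZ, 6.93, 3.42 and 7.28 in ISVZ, and 10.0, 15.5 and 20.3 in VZ. HES5 had 1.5, 1.28 and 0.669 FPKM in CP, 5.13, 4.08 and 7.96 in OSVZ, 7.87, 4.39 and 9.97 in ISVZ, and 13.9, 17.3 and 17.2 in VZ. For both genes every CP library lay below, and every VZ library above, all libraries of the other layers, while OSVZ and ISVZ overlapped. The low CP values are imprecise: the deposited bounds of HES1 there span 41.0% to 54.0% of the value on either side.

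CP held 4.30% of the mean VZ level of HES1 and 7.11% of that of HES5. Both fell in CP against the mean of the germinal layers, HES1 by 2.40 ± 0.22 and HES5 by 2.19 ± 0.22 on the log2 scale (limma adjusted p 4.99e-06 and 1.15e-05); with a pseudocount of 1 the log2 differences understate the change of genes this low. In OSVZ, HES1 averaged 5.5 ± 0.89 FPKM against 15.3 ± 5.13 in VZ (SD, n = 3 each), a difference of -1.28 ± 0.27 (adjusted p 0.00465). HES5 differed likewise between OSVZ and VZ, by -1.39 ± 0.27 (adjusted p 0.00344). Each of these calls held with any 1 library left out.

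The calls between ISVZ and VZ rested on more of the single libraries. HES1 averaged 5.87 ± 2.13 FPKM in ISVZ and 15.3 ± 5.13 in VZ, a log2 difference of -1.25 ± 0.27 (adjusted p 0.0154), and the call was lost without VZ 2 (0.0715), VZ 3 (0.0649) or ISVZ 2 (0.0550). HES5 averaged 7.41 ± 2.82 in ISVZ and 16.2 ± 1.92 in VZ (-1.08 ± 0.27, adjusted p 0.0322), lost without VZ 2 (0.128), VZ 3 (0.104), ISVZ 1 (0.0633) or ISVZ 2 (0.119). Between OSVZ and ISVZ neither gene passed (-0.04 ± 0.27 and -0.30 ± 0.27, adjusted p 0.963 and 0.593). In such bulk tissue, fewer cells of a type and less RNA per cell cannot be told apart.

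HES6 was the most abundant of the 8 members in every layer with its highest means in ISVZ and VZ. It had 52.3, 64.0 and 59.5 FPKM in CP, 161, 131 and 107 in OSVZ, 199, 218 and 301 in ISVZ, and 218, 250.5 and 188 in VZ. CP lay below every germinal library and OSVZ lay below every ISVZ and VZ library, whereas ISVZ and VZ overlapped. ISVZ averaged 239 ± 54.2 FPKM and VZ 219 ± 31.2, a log2 difference of 0.11 ± 0.19 (adjusted p 0.777).

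HES6 fell in OSVZ. That layer averaged 133 ± 27.2 FPKM against 219 ± 31.2 in VZ (-0.73 ± 0.19, adjusted p 0.0141), a call lost without VZ 2 (0.0636) or OSVZ 3 (0.0548). OSVZ against ISVZ was a larger difference, -0.84 ± 0.19, yet fell short of the threshold over all genes (adjusted p 0.0554) although the libraries did not overlap; it passed without ISVZ 1 (0.0331). CP was lower than OSVZ (-1.15 ± 0.19, adjusted p 0.00104) and than the germinal mean (-1.67 ± 0.15, adjusted p 5.40e-06). CP retained 26.8% of the mean VZ level of HES6.

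HEY1, a Notch target related to HES1 that in mouse also marks developing vessels, was a VZ gene in these libraries. It had 1.61, 2.47 and 2.52 FPKM in CP, 2.18, 2.34 and 3.49 in OSVZ, 2.86, 2.07 and 2.46 in ISVZ, and 5.67, 5.93 and 5.88 in VZ. The 3 VZ libraries were nearly equal and lay above all 9 others, and CP, OSVZ and ISVZ overlapped one another. HEY1 was lower in ISVZ than in VZ (-0.98 ± 0.16, adjusted p 0.00486) and lower in OSVZ than in VZ (-0.91 ± 0.16, adjusted p 0.00216), both with any 1 library left out. Neither CP against OSVZ (-0.20 ± 0.16, adjusted p 0.398) nor CP against ISVZ (-0.12 ± 0.16, adjusted p 0.568) passed the threshold. CP kept 37.8% of the mean VZ level, a log2 difference of -1.11 ± 0.16 (adjusted p 0.000162). The smaller difference of CP from the germinal mean (-0.47 ± 0.13, adjusted p 0.0112) was lost without CP 1 (0.0758).

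ID4, which in mouse is needed for the timing of neural progenitor divisions, had the steepest gradient of the group. It had 1.92, 3.76 and 1.61 FPKM in CP, 24.2, 29.2 and 33.7 in OSVZ, 53.6, 51.7 and 51.0 in ISVZ, and 106, 126 and 122 in VZ. No pair of layers overlapped, and ID4 ranked 13 of 14101 genes in the F test. OSVZ held 24.6% and ISVZ 44.2% of the mean VZ level, and CP 2.06%.

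ID4 fell by 4.11 ± 0.16 on the log2 scale in CP against the germinal mean (adjusted p 2.93e-08). It was lower in OSVZ than in VZ (-1.99 ± 0.20, adjusted p 0.000183) and lower in ISVZ than in VZ (-1.16 ± 0.20, adjusted p 0.00541), and all 3 calls held with any 1 library left out. OSVZ against ISVZ gave -0.83 ± 0.20 (adjusted p 0.0578), past the threshold without CP 2 (0.0439). CP was lower than OSVZ by a log2 difference of -3.17 ± 0.20 (adjusted p 2.27e-06), the largest step between neighbouring layers of any member.

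ID2 ran the other way. This ID gene is expressed by postmitotic neurons as well as progenitors of the mouse cortex. It had 35.6, 20.1 and 43.3 FPKM in CP, 47.1, 49.5 and 30.0 in OSVZ, 37.7, 22.6 and 17.4 in ISVZ, and 20.8, 10.9 and 13.8 in VZ. The layers overlapped in every pairing except OSVZ with VZ. OSVZ averaged 42.2 ± 10.7 FPKM and VZ 15.2 ± 5.07 (SD, n = 3 each), a log2 difference of 1.43 ± 0.34 (adjusted p 0.00978) that held with any 1 library left out.

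CP averaged 33.0 ± 11.8 FPKM of ID2, above VZ by 1.05 ± 0.34 in log2 (adjusted p 0.0230), but this call was lost without VZ 2 (0.0888), VZ 3 (0.0610), CP 1 (0.0687) or CP 3 (0.0896). The threshold was missed by CP against the germinal mean (0.34 ± 0.28, adjusted p 0.336), by ISVZ against VZ (0.71 ± 0.34, adjusted p 0.251) and by OSVZ against ISVZ (0.72 ± 0.34, adjusted p 0.272). In CP the most abundant ID transcript was ID2 (33.0 ± 11.8 FPKM, against 2.43 ± 1.16 for ID4), while in VZ it was ID4 (118 ± 10.8, against 15.2 ± 5.07 for ID2).

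ID1 and ID3, close relatives that act together in the vessels and progenitors of the mouse forebrain, had lower levels and more scatter. ID1 had 4.0, 4.38 and 3.31 FPKM in CP, 6.80, 6.31 and 10.7 in OSVZ, 7.62, 6.47 and 8.69 in ISVZ, and 11.5, 23.9 and 13.7 in VZ. ID3 had 4.0, 7.10 and 5.79 FPKM in CP, 5.83, 7.45 and 15.3 in OSVZ, 5.83, 12.6 and 10.2 in ISVZ, and 11.4, 23.8 and 13.3 in VZ. For ID1 only OSVZ and ISVZ overlapped, whereas for ID3 every pair of layers overlapped except CP and VZ. Within VZ the 2 genes matched library by library, with VZ 2 the highest for both.

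ID1 was lower in CP than in the germinal mean (-1.14 ± 0.20, adjusted p 0.000663) with any 1 library left out. Its differences between germinal layers were smaller: OSVZ against VZ gave -0.92 ± 0.25 (adjusted p 0.0173), lost without VZ 2 (0.0601), OSVZ 1 (0.0587) or OSVZ 2 (0.0625). ISVZ against VZ gave -0.96 ± 0.25 (adjusted p 0.0365) and was lost on leaving out any of VZ 2, VZ 3, the 3 ISVZ libraries or CP 1 (adjusted p 0.0509 to 0.140). CP against OSVZ (-0.84 ± 0.25, adjusted p 0.0247) was lost without OSVZ 3 (0.0792), CP 1 (0.0536) or CP 3 (0.0752). CP against ISVZ (-0.81 ± 0.25, adjusted p 0.0201) was lost without ISVZ 3 (0.0712) or CP 3 (0.0662).

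ID3 passed in 2 comparisons. It was lower in CP than in VZ, with 5.63 ± 1.56 FPKM in CP and 16.2 ± 6.65 in VZ (-1.33 ± 0.37, adjusted p 0.00983), a call lost without VZ 1 and VZ 2 together (-1.13, adjusted p 0.108). It was lower in CP than in the germinal mean (-0.86 ± 0.30, adjusted p 0.0321), a call lost without ISVZ 2 (0.0510), ISVZ 3 (0.0514), CP 1 (0.146) or CP 3 (0.0726). OSVZ against VZ gave -0.74 ± 0.37 (adjusted p 0.161), which passed without OSVZ 3 (0.0423).

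The libraries in which ID1 and ID3 stood out also differed in markers of other cells. VZ 2, highest for both, held 2514 FPKM of the choroid plexus gene TTR, against 529 in VZ 1 and 33.8 in VZ 3, and 8.86 FPKM of the ligand BMP4, against 2.30 and 2.01. The 6 choroid plexus markers (4 of 6 tested) summed to 0.216 to 3.84 FPKM in CP, 2.33 to 6.41 in OSVZ, 2.98 to 52.7 in ISVZ and 43.9 to 2691 in VZ, and all 4 tested were lower in OSVZ than in VZ. OSVZ 3, highest of its layer for ID1 and ID3, had the most of the endothelial gene CLDN5 (11.2 FPKM, against 7.81 and 8.39 in OSVZ 1 and OSVZ 2) and of the glial water channel AQP4 (14.7, against 0.791 and 2.5). The 6 astrocyte markers, a list that holds AQP4, summed to 23.3 FPKM in OSVZ 1, 59.1 in OSVZ 2 and 71.1 in OSVZ 3. Of these, S100B was not highest in OSVZ 3 (15.2, against 29.3 in OSVZ 2). All 12 endothelial and mural markers together summed to 44.3 FPKM in OSVZ 1, 45.2 in OSVZ 2 and 51.0 in OSVZ 3. Of them, KDR, PDGFRB, RGS5, KCNJ8 and ABCC9 were not highest in OSVZ 3. The 12 endothelial and mural markers summed to 18.9 to 33.8 FPKM in CP, 44.3 to 51.0 in OSVZ, 39.0 to 52.2 in ISVZ and 46.0 to 48.8 in VZ. Of 9 tested, 5 were lower in CP than in the germinal mean and 1 was lower in OSVZ than in VZ. Of all genes tested, 28.7% and 16.2% were lower in these comparisons. The part of these cells in the ID1 and ID3 differences was not tested.

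**Figure D2:**
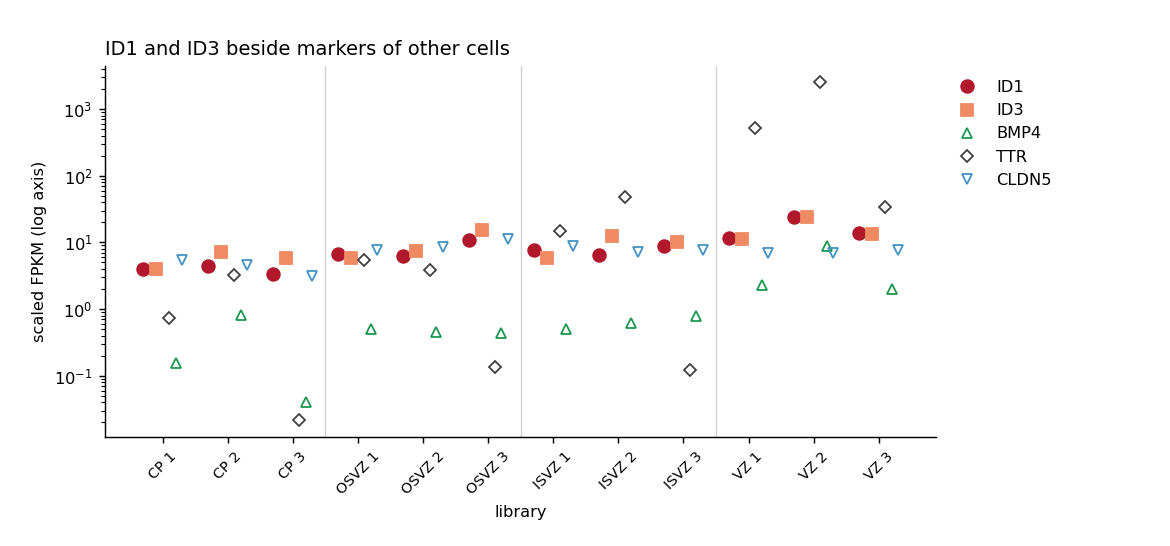
Scaled FPKM on a log axis of ID1 and ID3 beside BMP4, TTR (choroid plexus) and CLDN5 (endothelium) in each of the 12 libraries. ID1 and ID3 reach 23.9 and 23.8 FPKM in VZ 2, where TTR reaches 2514 and BMP4 8.86 FPKM.

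Radial glial markers had the same order of layers as HES1, HES5 and ID4, with VZ highest and CP lowest. With HES5 itself left out, 8 such markers (7 tested, FABP7 listed at 0) summed to 26.6 to 44.8 FPKM in CP, 199 to 216 in OSVZ, 302 to 395 in ISVZ and 732 to 851 in VZ. All 7 were lower in CP than in the germinal mean and in OSVZ than in VZ, and 4 of 7 were lower in ISVZ than in VZ. Of all genes tested, 28.7%, 16.2% and 7.18% were lower in these comparisons. Dividing-cell markers summed to 1.65 to 3.87 FPKM in CP, 75.7 to 129 in OSVZ, 136 to 248 in ISVZ and 192 to 222 in VZ, with 5 of 5 lower in CP than in the germinal mean. Astrocyte markers, 6 of 6 tested, summed to 18.3 to 22.0 in CP, 23.3 to 71.1 in OSVZ, 47.4 to 97.0 in ISVZ and 232 to 353 in VZ, and 6 of 6 were lower in OSVZ than in VZ. The part of these cell types in the member differences was not tested.

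**Figure D3:**
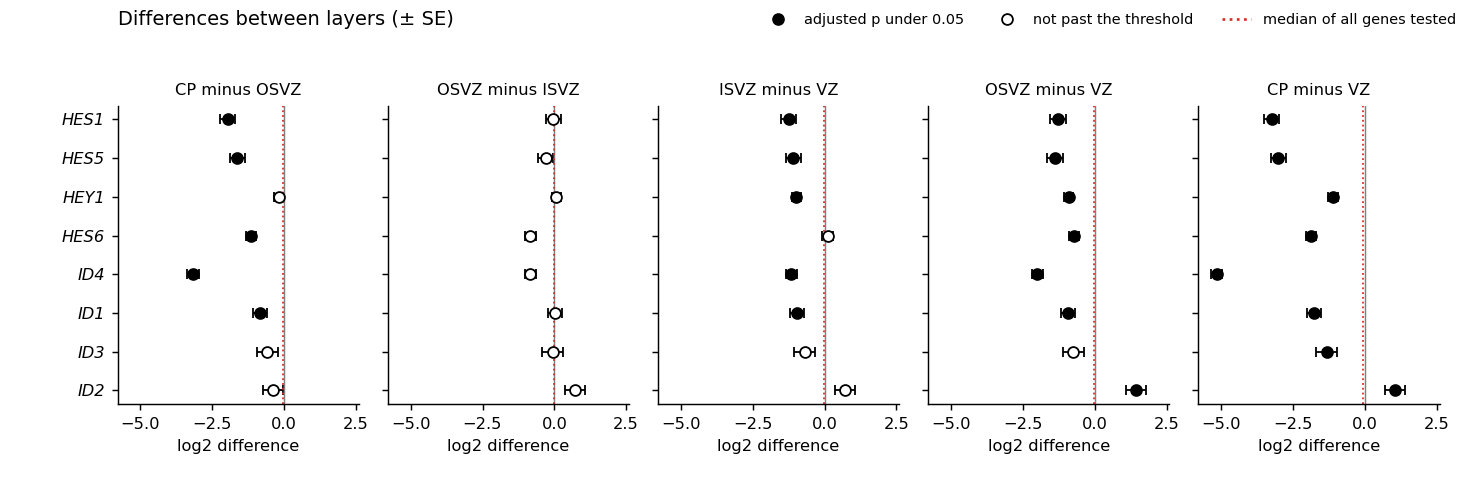
Log2 differences (± SE, limma) of the 8 members between layers, with filled points past an adjusted p of 0.05 and a dotted line at the median of all genes tested. ID2 is the only member to the right of 0 in a called comparison, at 1.43 in OSVZ minus VZ and 1.05 in CP minus VZ, and no member is called in OSVZ minus ISVZ.

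Because levels in a library share its cells, ratios of members within each library were also compared across layers, each with an exact permutation test of the F statistic over the 369600 possible assignments of libraries to layers, adjusted over 5 ratios. The log2 ratio of ID2 to ID4 was 3.65, 2.15 and 4.09 in CP, 0.93, 0.74 and -0.17 in OSVZ, -0.50, -1.16 and -1.50 in ISVZ, and -2.29, -3.41 and -3.06 in VZ. The 4 layers did not overlap, and the exact permutation p of 6.49e-05, the smallest the design can give, was 0.000325 after adjustment. All 5 pairs were chosen with earlier results of these data known. The adjustment does not correct for that choice, so the p-values of the ratios are no independent support. ID2 exceeded ID4 in every CP library and in OSVZ 1 and OSVZ 2, and lay below it in OSVZ 3 and in every ISVZ and VZ library.

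HEY1 and HES1 also changed unequally. Their log2 ratio averaged 0.94 ± 0.32 in CP, -0.83 ± 0.23 in OSVZ, -0.94 ± 0.38 in ISVZ and -1.20 ± 0.46 in VZ (SD, n = 3 each; exact permutation p 0.00838, adjusted 0.0209). HEY1 exceeded HES1 in the 3 CP libraries and in no other. The ratio of HES6 to HES1 averaged 5.17 ± 0.20 in CP, 4.35 ± 0.48 in OSVZ, 5.16 ± 0.49 in ISVZ and 3.80 ± 0.59 in VZ (exact permutation p 0.0192, adjusted 0.0319). Its call was lost without VZ 2, VZ 3, ISVZ 3, OSVZ 2, CP 2 or CP 3 (adjusted exact permutation p 0.0589 to 0.0833). HES1 in CP lay below the 1 FPKM added before taking logs, which lowers the ratio there: CP minus VZ was 1.37 as given and 2.41 with 0.1 added (adjusted exact permutation p 0.00568), so the CP ratio depends on that setting.

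The other 2 ratios did not pass. HES5 over HES1 averaged 0.36 in CP, 0.02 in OSVZ, 0.29 in ISVZ and 0.12 in VZ (exact permutation p 0.524, adjusted 0.618). ID1 over ID3 averaged -0.41 ± 0.36 in CP, -0.16 ± 0.34 in OSVZ, -0.25 ± 0.60 in ISVZ and 0.02 ± 0.02 in VZ (exact permutation p 0.618, adjusted 0.618). In the VZ libraries that ratio was 0.004, 0.006 and 0.043, a far narrower spread than in the other layers.

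**Figure D4:**
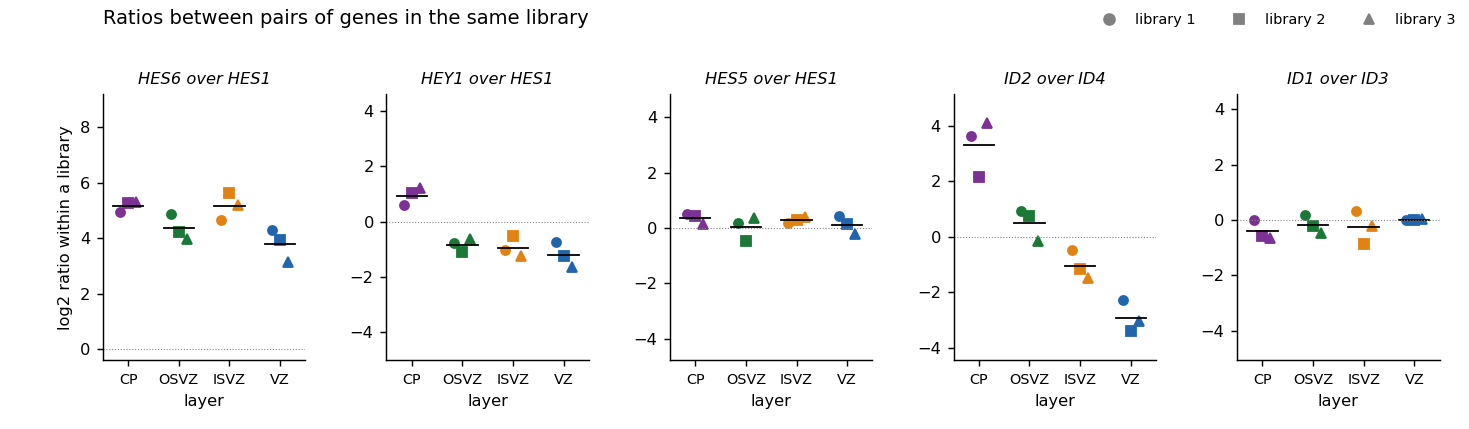
Log2 ratios of scaled FPKM (each plus 1) of member pairs within each library, by layer from CP to VZ; points are libraries and bars are layer means. ID2 over ID4 averages 3.29 in CP and -2.92 in VZ with no overlap between layers, while HES5 over HES1 stays between -0.48 and 0.52 in every library.

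Deviations of the libraries from their own layer means show how members varied together once the layer is set aside. These are descriptions over 12 libraries that share depth and dissection. HES1 and HES5 varied together (Pearson r = 0.68), as did ID1 and ID3 (0.67) and HES5 and ID1 (0.68). ID2 varied against the other 3 ID genes, with r = -0.69 for ID1, -0.78 for ID3 and -0.70 for ID4. HES6 followed none of the other members closely, with r between -0.28 and 0.11.

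Genes most like each member were named by Pearson r of log2 levels over the 12 libraries, as a description in which the layers set most of the agreement. HES1 was closest to DIPK1C (0.990), SLC2A4RG (0.990) and LTBP3 (0.988) and farthest from STMN2 (-0.972), a neuronal tubulin regulator. HES5 was closest to FAT1li1 (0.985), ZFP36L2 (0.984) and GAREM2li1 (0.983) and farthest from PTPRO (-0.982). HES6 was closest to ACTL6Ali2 (0.991), H2AZ2li2 (0.987) and DHDDS (0.984) and farthest from CDKL1 (-0.988). H2AZ2li2, a name read here as a copy of a histone variant gene, shared the plateau of HES6, with means of 89.6 FPKM in CP, 230 in OSVZ, 409 in ISVZ and 394 in VZ.

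HEY1 was closest to SLC30A10 (0.963), GYS1 (0.961) and ANKFN1 (0.958) and farthest from AGO4 (-0.913). ID1 was closest to ADAM15 (0.978), C15ORF39 (0.977) and HOGA1 (0.977) and farthest from SLC38A1 (-0.970). ID2 was closest to TSORFli2415 (0.964), CEP85L (0.961) and ERN1 (0.960) and farthest from PFN1 (-0.925). ID3 was closest to AQP4 (0.951), COL5A1 (0.946) and CST3 (0.942) and farthest from PRDM2 (-0.944). ID4 was closest to CPT1A (0.992), MT3 (0.991) and MYO10 (0.991) and farthest from WDR5B (-0.990). CPT1A, the entry enzyme of mitochondrial fatty acid oxidation, averaged 1.03 FPKM in CP, 8.65 in OSVZ, 13.5 in ISVZ and 25.9 in VZ. Names that end in li and a number were read here as copies, a meaning the labels do not give. If they are copies, reads could have been divided among them.

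Of 9 further family members listed, 4 were expressed enough to be tested. HES4, absent from the mouse genome and present in human, was highest in VZ, with 0.614 ± 0.065 FPKM in CP, 1.66 ± 0.41 in OSVZ, 2.92 ± 1.01 in ISVZ and 11.2 ± 0.65 in VZ. It was lower in CP than in the germinal mean (-1.62 ± 0.15, limma adjusted p 6.43e-06) and in OSVZ than in VZ (-2.20 ± 0.19, adjusted p 9.85e-05). HEY2 was also lower in CP (-1.0 ± 0.17, adjusted p 0.000539), and HEYL did not pass (-0.29 ± 0.13). BHLHE40, a more distant repressor of the same superfamily, was higher in CP (1.35 ± 0.21, adjusted p 0.000268), with 3.81 ± 1.75 FPKM in CP, 0.753 ± 0.150 in OSVZ, 0.447 ± 0.139 in ISVZ and 1.26 ± 0.37 in VZ. The list's median was -0.64 over the 4 tested, beside -0.05 over all genes tested.

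The E proteins, the partners that ID proteins bind, were unevenly placed. TCF12 was lower in CP than in the germinal mean (-1.78 ± 0.20, adjusted p 2.83e-05), with 15.4 ± 1.47 FPKM in CP, 33.4 ± 7.01 in OSVZ, 75.7 ± 24.8 in ISVZ and 70.9 ± 16.7 in VZ. TCF4 was abundant in all layers, with 72.8 ± 19.1 FPKM in CP, 97.2 ± 27.1 in OSVZ, 94.2 ± 28.1 in ISVZ and 69.7 ± 15.3 in VZ, and did not pass (-0.24 ± 0.23, adjusted p 0.412). With the library number as a block it passed (limma adjusted p 0.0410). TCF3 lay below the filter.

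Of 12 proneural and related bHLH factors, only some of which are known targets of HES repression, 11 were found by symbol and 9 were tested. NEUROG2 was the one not found. In CP against the germinal mean 5 were lower and 2 higher, with a median of -1.37, where 28.7% of all genes tested were lower and 24.0% higher. Lower ones that act in progenitors and young neurons or in glial precursors were NEUROD4 (-5.60 ± 0.31), NEUROG1 (-4.09 ± 0.33), OLIG2 (-2.91 ± 0.23) and OLIG1 (-1.37 ± 0.31). The higher ones, NEUROD6 (1.98 ± 0.41) and BHLHE22 (2.12 ± 0.36), act in projection neurons. NEUROD1 (0.45 ± 0.26) and NEUROD2 (0.88 ± 0.36) did not pass. NEUROD1 passed without CP 1 (limma adjusted p 0.0164), and NEUROD2 without VZ 1 (0.0331) or ISVZ 1 (0.0179). NEUROD2 also passed with the library number as a block (0.0240). In OSVZ against VZ 4 were higher and 1 lower, beside 11.7% and 16.2% of all genes tested. The higher ones were NEUROD2 (2.43 ± 0.44), NEUROD6 (2.22 ± 0.50), BHLHE22 (2.73 ± 0.44) and OLIG1 (2.47 ± 0.38).

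Co-repressors had the smallest share of calls among these lists. Of 12, 11 were tested (HDAC1 was listed at 0), and in CP against the germinal mean 2 were lower, 1 was higher and the median was -0.16. Of all genes tested, 28.7% were lower there and 24.0% higher. TLE1, a Groucho protein recruited by HES factors, was lower (-1.06 ± 0.13, adjusted p 5.95e-05), with 6.54 ± 1.11 FPKM in CP, 10.9 ± 0.81 in OSVZ, 15.0 ± 2.36 in ISVZ and 19.3 ± 4.08 in VZ. SIN3A, a histone deacetylase scaffold, was lower (-0.80 ± 0.10) and RUNX1T1 higher (0.99 ± 0.21). TLE2, TLE3, TLE4, TLE5, HDAC2, SIRT1 and NCOR1 did not pass, with log2 differences between -0.20 and 0.07.

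The Notch pathway, upstream of HES1, HES5 and HEY1, was lower in CP for most of its parts. Of 36 genes listed 35 were tested. In CP against the germinal mean 21 were lower and 6 higher, where 28.7% of all genes tested were lower and 24.0% higher. The median was -0.62, where all genes tested had -0.05. The receptors NOTCH1 (-3.35 ± 0.16) and NOTCH2 (-2.36 ± 0.16) and the glycosyltransferases MFNG (-3.77 ± 0.14) and LFNG (-2.32 ± 0.22), which tune the receptors' response to ligands, led the lower group. NOTCH1 had 0.379 ± 0.213 FPKM in CP, 7.81 ± 1.09 in OSVZ, 13.5 ± 3.46 in ISVZ and 21.2 ± 3.08 in VZ. The protease ADAM10 (0.11 ± 0.09) and the noncanonical ligand DLK1 (-0.88 ± 0.47) did not pass, though DLK1 passed without VZ 1 (0.0149).

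In OSVZ against VZ, 17 Notch genes were lower and 3 higher (median -0.33), beside 16.2% and 11.7% of all genes tested. In ISVZ against VZ 8 were lower and 0 higher (median -0.22), beside 7.18% and 1.54%. NRARP, a direct Notch target and feedback inhibitor named here after its values were seen, had 6.12 ± 0.90 FPKM in CP, 10.8 ± 1.31 in OSVZ, 12.4 ± 2.11 in ISVZ and 24.7 ± 2.90 in VZ. Its log2 difference between OSVZ and VZ was -1.12 ± 0.15, beside -0.91 ± 0.16 for HEY1 and -1.28 ± 0.27 for HES1. The NRARP values are given as a description because of how the gene was chosen.

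The BMP pathway, upstream of the ID genes, had 20 of 29 listed genes tested. In CP against the germinal mean 9 were lower and 2 higher, with a median of -0.33, where 28.7% of all genes tested were lower and 24.0% higher. The signal transducers SMAD9 (-1.71 ± 0.21) and SMAD5 (-1.32 ± 0.14) and the receptor ACVR2B (-0.99 ± 0.12) were lower. BMP7, a ligand counted among the 9, reached 1 FPKM in VZ alone (1.49, 3.81 and 1.17 FPKM), as did BMP4, so both entered the test only through the layer where they are high. The receptor ACVR1 (0.30 ± 0.14) and the decoy receptor BAMBI (0.36 ± 0.31) did not pass, though ACVR1 passed without CP 2 (0.0451). In OSVZ against VZ 8 were lower and 2 higher (median -0.38), beside 16.2% and 11.7% of all genes tested. In ISVZ against VZ 2 were lower and 0 higher (median -0.22), beside 7.18% and 1.54%. The 8 include BMP4 and BMP7, whose lower level outside VZ was favoured by the filter. Both medians hold these genes too.

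The ligand BMP4 and the BMP antagonist NOG were both named after their values were seen. BMP4 averaged 0.466 ± 0.040 FPKM in OSVZ and 4.39 ± 3.87 in VZ, where VZ 2 alone held 8.86 FPKM, and these levels are given as a description. NOG, likewise given as a description, had 2.91 ± 1.22 FPKM in OSVZ and 11.0 ± 1.79 in VZ (log2 difference -1.66 ± 0.23). The VZ libraries held 9.04, 12.6 and 11.4 FPKM of NOG.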

How the data were processed

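Values are FPKM per gene with 2 confidence bounds, as the authors deposited them, 1 table to a library, per the file headers. The submitters' processing notes name HISAT2 and Cufflinks. Their versions, the build, the annotation and whether strand was used were not given. Gene symbols were taken from the tables. Where several entries carried 1 ID (360 IDs) they were added up, and 4 failed IDs were left out. Libraries were scaled by median ratios to a geometric mean profile (10200 genes).

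Genes reaching 1 scaled FPKM in 3 or more libraries (14101) went into limma 3.58.1 (R 4.3.3) on log2 of scaled FPKM plus 1, with all 12 libraries in 1 fit (8 residual degrees of freedom, trended empirical Bayes). Adjusted p-values are Benjamini-Hochberg over all genes tested, threshold 0.05, two-sided. The germinal mean is the mean of OSVZ, ISVZ and VZ on the log2 scale. Ratios of members were tested with exact permutation tests, and their adjusted p-values cover the 5 ratios. The fit was first tested on simulated data. Alternatives were other scalings, a pseudocount of 0.1, no filter or a filter of 5, no trend, a replicate block, and libraries left out singly, or VZ 1 and VZ 2 together.

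The members, ratios and gene lists were chosen with earlier results of these data known. Named are the members, all tested relatives, E proteins, proneural factors and co-repressors, the layer checks, and up to 4 called Notch and 4 called BMP genes with the largest difference between CP and the germinal mean, with 2 uncalled ones each. For each member, the 3 genes most like it and the 1 least like it are also named. Some of the genes this rule names are not reported here.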

Additional observations from a re-analysis of the deposited data

How the results depend on the processing

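With 1 library left out, 624 of 672 member results kept their direction and their side of the threshold, 32 fell short of it, 3 passed it and 13, none of them called, changed sign; under the other settings 478 of 504 kept both, 24 fell short, 2 passed and 0 changed sign. Counts of genes called in OSVZ against ISVZ (85) moved most: 54 with FPKM as deposited, 157 with quantile normalisation, 38 with equal totals, 19 with a pseudocount of 0.1, 8 without a filter, 299 with a filter of 5, 206 with the replicate block, 21 without VZ 1 and VZ 2 together, and 2 to 552 with 1 library left out (2 without ISVZ 2). Members called there (0) were 2 with a filter of 5 (HES6 and ID4) and 0 to 1 with 1 library left out. In ISVZ against VZ, genes called (1229) were 787 without a filter, 715 with a filter of 5, 71 without VZ 1 and VZ 2, and 389 to 1384 with 1 library left out (389 without VZ 2); members called (5) were 2 without a filter, 0 without VZ 1 and VZ 2, and 2 to 5 with 1 library left out. In OSVZ against VZ, genes called (3935) were 1171 without VZ 1 and VZ 2 and 2558 to 3983 with 1 library left out, and members called (7) were 4 without a filter, 2 without VZ 1 and VZ 2, and 5 to 7 with 1 library left out. In CP against VZ, genes called (7413) were 4924 and members called (8) 6 without VZ 1 and VZ 2. That alternative leaves 1 library in VZ, which is then assumed to vary like the other layers. Under it, HES1 and ID4 kept their calls in OSVZ against VZ. The HES6 to HES1 ratio, CP minus VZ in log2, was 1.37, and 1.05 to 1.63 with 1 library left out, 2.41 with a pseudocount of 0.1 and 2.01 without VZ 1 and VZ 2. That pseudocount also moved NOTCH2 (-4.26), HEY2 (-2.03), NEUROG1 (-7.09) and BHLHE40 (2.08) in CP against the germinal mean by over 1.5 times, all away from 0.

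Uncalled log2 differences changed sign as follows with 1 library left out. In OSVZ against ISVZ, HES1 ran from -0.328 to 0.125, HEY1 from -0.081 to 0.166, ID1 from -0.179 to 0.163 and ID3 from -0.417 to 0.21. HES6 ran from -0.063 to 0.234 in ISVZ against VZ and HEY1 from -0.206 to 0.018 in CP against ISVZ. In CP against the germinal mean, BAMBI ran from -0.012 to 0.548, TLE2 from -0.15 to 0.023, TLE4 from -0.365 to 0.03 and TLE5 from -0.027 to 0.142. There TLE5 was -0.009 with FPKM as deposited, -0.032 with quantile normalisation and -0.003 without VZ 1 and VZ 2; NCOR1 was -0.035, -0.034 and -0.002 in the same settings and -0.012 with equal totals; TLE2 was 0.07 with quantile normalisation. The cause of these changes was not tested.

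Same-numbered libraries of different layers deviated together (r 0.063 to 0.425, 16 of 18 pairs above 0.1). Libraries of other numbers averaged r from -0.18 to -0.049, which mirrors this, since deviations within a layer cancel. The libraries may thus be paired by number, but the labels do not say what a number marks. The main fit and the permutation tests left such a pairing out. With the number as a block, 8085 genes passed the F test, beside 7302 without it. The replicate block changed no member call; in CP against the germinal mean it brought TCF4 (-0.24, adjusted p 0.0410) and NEUROD2 (0.88, adjusted p 0.0240) past the threshold. Low levels limit HES1 in CP, where the bounds reach 54.0% of the value.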

Other observations

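ID2 followed the projection neuron factor NEUROD2, a gene chosen after its values were seen. NEUROD2 had 83.5, 66.0 and 72.0 FPKM in the CP libraries, 110, 101 and 64.0 in OSVZ, 77.7, 34.8 and 28.1 in ISVZ, and 25.05, 7.32 and 20.8 in VZ. The libraries of ISVZ and of VZ stood in the same order for both genes, highest in ISVZ 1 and VZ 1. Those of OSVZ and of CP did not: ID2 was highest in OSVZ 2 and CP 3, NEUROD2 in OSVZ 1 and CP 1. Over the 12 libraries Pearson r was 0.92, and 0.79 for deviations from the layer means, given as descriptions. Projection neuron markers, a list that holds NEUROD2, summed to 3233 to 3856 FPKM in CP, 1568 to 1639 in OSVZ, 901 to 1134 in ISVZ and 450 to 745 in VZ. Members of that list differed in where they peaked: NEUROD2 averaged 73.8 FPKM in CP and 91.7 in OSVZ, its highest mean, which is also the layer of the highest ID2 mean.

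Oligodendrocyte precursor markers, 4 of 5 tested, summed to 3.90 to 12.9 FPKM in CP, 46.4 to 70.3 in OSVZ, 25.4 to 37.5 in ISVZ and 21.1 to 28.1 in VZ. Of the 4, 3 were higher in OSVZ than in VZ, beside 11.7% of all genes tested. The untested marker, CSPG4, averaged 1.01 FPKM in VZ and 0.14 in OSVZ. ID2 was the member with its highest mean in OSVZ. In CP, where the precursor sum was lowest, ID2 averaged 33.0 ± 11.8 FPKM and did not differ from OSVZ (-0.38 ± 0.34, limma adjusted p 0.433). Interneuron markers summed to 129 FPKM in ISVZ 1, against 485 and 450 in ISVZ 2 and ISVZ 3. HES6 was also lowest of its layer in ISVZ 1 (199 FPKM, against 218 and 301) but highest in ISVZ 3. In libraries 1, 2 and 3 of VZ the sums (309, 382 and 255) and HES6 (218, 250.5 and 188) had the same order. They did not in OSVZ (sums 72.6, 124 and 117, HES6 161, 131 and 107). Nor did they in CP (sums 55.2, 51.5 and 20.0, HES6 52.3, 64.0 and 59.5). The part of precursors and interneurons in the ID2 and HES6 levels was not tested.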
